A study of Saccharomyces cerevisiae with 12 samples.

Results

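The 7 genes examined encode the enzymes of histidine synthesis in budding yeast (Saccharomyces cerevisiae): HIS1, HIS2, HIS3, HIS4, HIS5, HIS6 and HIS7. They were taken by gene symbol from the platform annotation, each was read by 1 probe set, and they are 7 of the 5448 genes measured. RNA came from 12 cultures, 3 of each of 4 strains in the W303-1A background. The wild type was W303-1A, the bmh mutant (YLL1087) carried bmh1-170ts and bmh2∆, the hdac mutant (CTY-TY44) carried hda1∆ and rpd3∆, and the combined mutant (KBY3) carried all 4 mutations. BMH1 and BMH2 encode the yeast 14-3-3 proteins, which bind phosphorylated partners, and HDA1 and RPD3 encode histone deacetylases. All cultures grew exponentially at 30 °C in YP medium, a rich medium, with 5% glucose, to an optical density of 0.7 to 1.3. Whether glucose repression held in each mutant was not tested. Each mutant genotype was represented by 1 strain, and the sources used here do not state its marker alleles. The replicates were 3 cultures of that strain, and p-values measure the spread between such cultures.

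Histidine is built from phosphoribosyl pyrophosphate (PRPP) and ATP. HIS1 encodes the ATP phosphoribosyltransferase of the first step, which histidine inhibits, and HIS4 a protein with several activities that acts both early and at the end of the pathway. HIS6 encodes an isomerase, and HIS7 the glutamine-using enzyme that closes the imidazole ring and releases AICAR, an intermediate that returns to purine synthesis. HIS3 (imidazoleglycerol-phosphate dehydratase), HIS5 (an aminotransferase) and HIS2 (a phosphatase) follow. The activator Gcn4 induces these genes when amino acids are scarce, and Bas1 with Pho2 links some of them, HIS4 among them, to purine supply. HIS3 is also a widely used selectable marker: W303 strains carry a nonfunctional his3 allele, and intact HIS3 copies are used to mark constructed mutations. Its RNA level can therefore depend on how a strain was built.

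Signals are on the log2 scale, so a difference of 1 is a doubling, and levels of different genes are not compared because each probe set has its own response. Array medians lay between 8.81 and 8.85. Replicates of the mutants had a median standard deviation (SD) over genes of 0.0654 to 0.0681, against 0.135 in the wild type, where array 1 stood at least 2-fold from the other wild-type arrays at 61 genes. BMH2 signal was 11.64 (wild type) and 11.65 (hdac) where the gene is intact, against 4.03 (bmh) and 3.80 (combined) where it is deleted, and HDA1 and RPD3 lay between 3.78 and 3.89 in both strains that lack them. The source names give the strains of the hdac and combined arrays the other way round. The genotype labels were followed, and BMH2 was present on the arrays labelled hdac. The strain means of BMH1 ran from 12.71 to 12.93, which checks no label, as a point allele can leave the RNA level as it was. The highest signal of a deleted gene was 4.13, and the lowest value of a histidine gene on any array was 7.25.

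HIS3 RNA fell into 2 separate levels that followed the BMH genotype. On the wild-type arrays HIS3 measured 7.45, 7.25 and 7.36, and on the hdac arrays 7.87, 7.82 and 7.88. On the bmh arrays it measured 11.94, 11.86 and 11.996, and on the combined arrays 12.03, 12.10 and 12.13. All 6 arrays with the 14-3-3 mutations thus lay far above the 6 without them, and no 2 strains overlapped. Relative to the wild type HIS3 rose 23.9-fold in the bmh mutant (log2 difference 4.58 ± 0.063, standard error (SE), n = 3 against 3; adjusted p = 1.4e-13 by limma with Benjamini-Hochberg adjustment over all genes) and 26.6-fold in the combined mutant (4.73 ± 0.063, adjusted p = 4.7e-14). In absolute size these ranked 2 and 15 among the 5448 genes.

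Within strains that lacked the deacetylases the step was nearly as large: the combined mutant exceeded the hdac mutant 18.7-fold (4.23 ± 0.063, limma adjusted p = 1.4e-13). The interaction, defined as the combined-minus-hdac difference less the bmh-minus-wild-type difference, was −0.35 ± 0.089 for HIS3 (limma adjusted p = 0.013). Deacetylase loss was accompanied by small rises of HIS3, 1.42-fold against the wild type (0.50 ± 0.063, limma adjusted p = 1.7e-05) and 1.11-fold against the bmh mutant (0.15 ± 0.063, limma adjusted p = 0.047). The latter lay at the threshold, and the call ended when any 1 of 8 arrays was left out (adjusted p from 0.054 to 0.17; not for wild-type array 1 or 2, bmh array 3 or combined array 1). Same-numbered bmh and combined arrays deviated together. Paired by number and fitted alone, they gave limma adjusted p = 0.034 for that difference, and a replicate block over all 12 arrays gave 0.051.

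**Figure D1:**
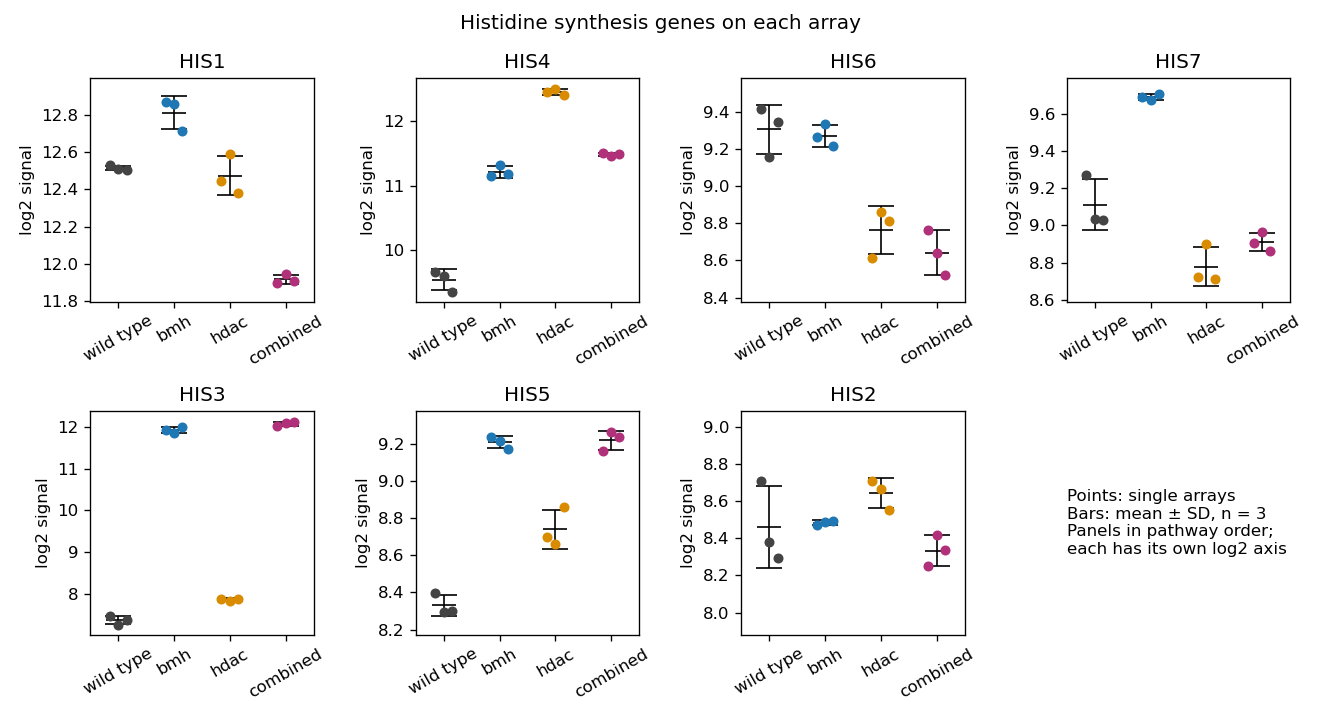
Log2 signal (y axis) of each histidine synthesis gene by strain (x axis), in pathway order; points are single arrays and bars the mean ± SD of 3, and each panel has its own axis. HIS3 lies between 7.25 and 7.88 in the wild type and hdac mutant and between 11.86 and 12.13 in the bmh and combined mutants, a split that no other panel shows at that size.

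The genes on either side of HIS3 on chromosome XV showed no step of that size. The reference annotation places MRM1, a mitochondrial ribosomal RNA methyltransferase gene, and DED1, an RNA helicase gene, next to it. The MRM1 signal was 9.47 ± 0.14 (mean ± SD, n = 3) for the wild type, 9.64 ± 0.094 for bmh, 9.05 ± 0.027 for hdac and 8.86 ± 0.070 for the combined mutant. It differed from the wild type by 0.17 ± 0.077 (SE) in the bmh mutant (limma adjusted p = 0.11), fell in the hdac mutant (−0.42 ± 0.077, limma adjusted p = 3.7e-04) and fell in the combined mutant (−0.61 ± 0.077, limma adjusted p = 1.5e-05). DED1 lay between 11.65 and 11.76 in the 4 strains and passed the test in none of the pairwise comparisons (limma adjusted p from 0.32 to 0.97). Without wild-type array 1 DED1 was called lower than the wild type in all 3 mutants, by −0.21 in bmh (limma adjusted p = 0.046), −0.21 in hdac (0.029) and −0.23 in combined (0.016). The order of these genes is that of the S288C reference (assembly R64); whether the HIS3 RNA of the mutants came from this chromosomal site was not tested.

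The other 6 genes were compared with the HIS3 step first where the deacetylases were present. Of the 7 genes, 5 rose in the bmh mutant relative to the wild type and 0 fell (0 also at an unadjusted p under 0.05 by limma), against 14.8% of all genes that rose, 17.2% that fell and 32.0% called in either direction. The members' median difference was 0.58, and that over all genes −0.01. Without HIS3, 4 of the other 6 rose and 0 fell, with a median of 0.44. Here and below a call means an adjusted p under 0.05, whatever the size of the difference.

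HIS4 measured 9.67, 9.61 and 9.36 in the wild type and 11.14, 11.32 and 11.17 in the bmh mutant, a rise of 3.18-fold (1.67 ± 0.079, limma adjusted p = 1.8e-08). HIS5 measured 8.40, 8.30 and 8.30 in the wild type against 9.24, 9.21 and 9.17, a rise of 1.84-fold (0.88 ± 0.063, limma adjusted p = 7.0e-07). HIS7 measured 9.27, 9.03 and 9.03 against 9.69, 9.67 and 9.71, a rise of 1.49-fold (0.58 ± 0.076, limma adjusted p = 1.2e-04). For each of these genes every bmh array lay above every wild-type array. Here and elsewhere such separation only describes 3 against 3 arrays, and its share over all genes was not counted. HIS1 rose least, from 12.53, 12.51 and 12.51 to 12.87, 12.86 and 12.71 (0.30 ± 0.065, limma adjusted p = 0.0042), again without overlap. HIS2 (0.02, 95% interval −0.18 to 0.23) and HIS6 (−0.03, −0.23 to 0.16) did not pass the test, and their arrays overlapped between the strains.

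Where the deacetylases were absent, the same 14-3-3 mutations went with a different pattern. The combined mutant was set against the hdac mutant, a comparison that shares no array with the one above. These 2 strains also differed in mating-type transcripts, as given below. Of the 7 genes 2 rose and 3 fell, against 17.5% and 18.9% of all genes (36.4% in either direction), and the members' median was −0.12 against −0.02 over all genes. Without HIS3, 1 of 6 rose and 3 fell, with a median of −0.22. HIS3 rose as described, and HIS5 rose from 8.70, 8.66 and 8.86 in the hdac mutant to 9.16, 9.26 and 9.23 (0.48 ± 0.063, limma adjusted p = 9.9e-05). HIS4 went the other way: its hdac arrays read 12.44, 12.50 and 12.41 and its combined arrays 11.50, 11.45 and 11.49, a fall by 0.97 ± 0.079 on the log2 scale (limma adjusted p = 1.8e-06), with no overlap. HIS1 also fell, from 12.45, 12.59 and 12.38 to 11.90, 11.94 and 11.91 (−0.56 ± 0.065, limma adjusted p = 3.5e-05).

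HIS2 fell from 8.71, 8.66 and 8.55 in the hdac mutant to 8.25, 8.42 and 8.33 in the combined mutant (−0.31 ± 0.095, limma adjusted p = 0.023). Leaving out combined array 1 or 3 or hdac array 1 or 2 ended that call (adjusted p from 0.060 to 0.085). HIS7 (0.13, 95% interval −0.03 to 0.30) and HIS6 (−0.12, −0.32 to 0.07) did not pass. With array weights HIS7 passed as a rise (0.19, limma adjusted p = 0.0028).

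**Figure D2:**
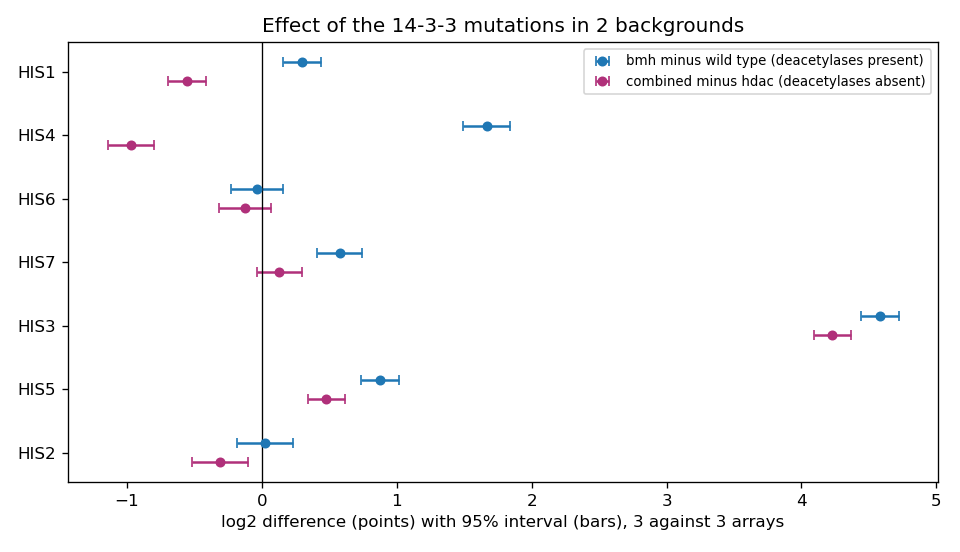
Log2 difference (x axis) of each histidine gene (y axis) for the 14-3-3 mutations, with deacetylases present (bmh minus wild type) and absent (combined minus hdac); points are fitted differences of 3 against 3 arrays and bars 95% intervals. HIS3 is above 4 in both, while HIS4 is 1.67 in one and −0.97 in the other and HIS1 0.30 and −0.56.

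The difference between those 2 patterns was tested as the interaction. It was below 0 and called for 5 of the 7 genes, and all 7 values were below 0, against 11.3% of all genes called below 0 and 12.3% above (23.7% in either direction). The members' median was −0.40 against −0.02 over all genes. Without HIS3, 4 of 6 were called below 0, with a median of −0.42. HIS4 had the largest, −2.64 ± 0.11 (limma adjusted p = 1.4e-08), larger in size than 99.7% of the genes tested. HIS1 followed with −0.85 ± 0.091 (limma adjusted p = 3.4e-05), then HIS7 with −0.45 ± 0.11 (limma adjusted p = 0.0099) and HIS5 with −0.40 ± 0.089 (limma adjusted p = 0.0071). HIS2 (−0.33 ± 0.13, limma adjusted p = 0.097) and HIS6 (−0.09 ± 0.13, limma adjusted p = 0.66) did not pass. Without wild-type array 1, where HIS2 read 8.71 against 8.38 and 8.29 on wild-type arrays 2 and 3, HIS2 had an interaction of −0.46 (limma adjusted p = 0.0014).

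Deacetylase loss was described next, again in both backgrounds. Relative to the wild type, 3 of the 7 genes rose in the hdac mutant and 2 fell, against 29.8% and 41.6% of all genes (71.4% in either direction), and the members' median was 0.18 against −0.09 over all genes. The number called in the hdac mutant, 5 of 7, is thus close to the share of all genes. Without HIS3, 2 of 6 rose and 2 fell, with a median of 0.07. HIS4 rose 7.48-fold (2.90 ± 0.079, limma adjusted p = 2.9e-11), a change larger than that of 98.9% of genes, and its 12.45 ± 0.047 (mean ± SD, n = 3) in the hdac mutant was its highest level in the 4 strains. HIS3 rose as given above, and HIS5 rose by 0.41 ± 0.063 (limma adjusted p = 9.8e-05). HIS6 fell, from 9.41, 9.16 and 9.34 to 8.62, 8.86 and 8.81 (−0.54 ± 0.089, limma adjusted p = 1.6e-04), and HIS7 fell by 0.33 ± 0.076 on the log2 scale (limma adjusted p = 0.0017). HIS1 differed by −0.04 (95% interval −0.18 to 0.10), and HIS2 by 0.18 (−0.03 to 0.39). HIS2 passed in this comparison once wild-type array 1 was left out (0.31, limma adjusted p = 8.0e-04).

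The hdac arrays also differed from the wild type in mating-type transcripts. There, 7 of 7 a-cell markers fell and 4 of 4 alpha-cell markers rose, beside 41.6% and 29.8% of all genes. The summed signal of the a-cell markers was 8.93 to 9.04 on the log2 scale on the hdac arrays, 14.34 to 14.48 for the wild type, 14.17 to 14.23 for bmh and 12.61 to 12.64 for the combined mutant. That of the alpha-cell markers was 12.38 to 12.41 on the hdac arrays, 8.31 to 8.55 for the wild type, 8.49 to 8.67 for bmh and 9.63 to 9.86 for the combined mutant. The alpha-factor gene MF(ALPHA)1 had strain means of 4.02 (wild type), 4.09 (bmh) and 3.81 (combined), below the 4.13 of the brightest deleted gene, with bmh array 3 above it at 4.25, against 11.64 in the hdac mutant. In the combined mutant 1 of 4 alpha-cell markers rose relative to the wild type and 1 fell, beside 30.4% and 45.2% of all genes. The alpha-agglutinin gene SAG1 rose, with 9.53 against 7.97 (1.56, limma adjusted p = 1.7e-08). The one called lower was MF(ALPHA)1 (−0.22, limma adjusted p = 0.023), both of whose means lay below the brightest deleted gene. Its call ended without wild-type array 3 (limma adjusted p = 0.080) or combined array 2 (0.10). Of the a-cell markers 6 of 7 fell in the combined mutant (median −1.85), beside 45.2% of all genes that fell. In the combined against the hdac mutant 7 of 7 a-cell markers were higher (median 2.64) and 4 of 4 alpha-cell markers lower (median −4.05). Over all genes 17.5% were higher and 18.9% lower in that comparison. In bmh against the wild type the medians were −0.14 and 0.13. There 3 of 7 a-cell markers fell and 0 of 4 alpha-cell markers were called. Of all genes 17.2% fell in bmh and 32.0% were called in either direction. The part of these mating-type differences in the histidine gene values was not tested.

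Against the bmh mutant, the combined mutant had 2 histidine genes higher and 3 lower, where 30.1% and 45.0% of all genes were called (75.0% in either direction), with a median of −0.15 for the members and −0.12 for all genes. Without HIS3, 1 of 6 was higher and 3 were lower, with a median of −0.39. HIS1 (−0.90 ± 0.065, limma adjusted p = 1.2e-07), HIS7 (−0.78 ± 0.076, limma adjusted p = 1.6e-06) and HIS6 (−0.63 ± 0.089, limma adjusted p = 4.2e-05) fell without overlap. HIS4 rose by 0.27 ± 0.079 (limma adjusted p = 0.0089), against 2.90 between the hdac mutant and the wild type. HIS5 differed by 0.01 (95% interval −0.13 to 0.15). HIS2 differed by −0.15 (−0.36 to 0.06), did not pass, and passed when the bmh and combined arrays were paired by number and fitted alone (limma adjusted p = 0.033) or when wild-type array 1 was left out (limma adjusted p = 0.030).

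**Figure D3:**
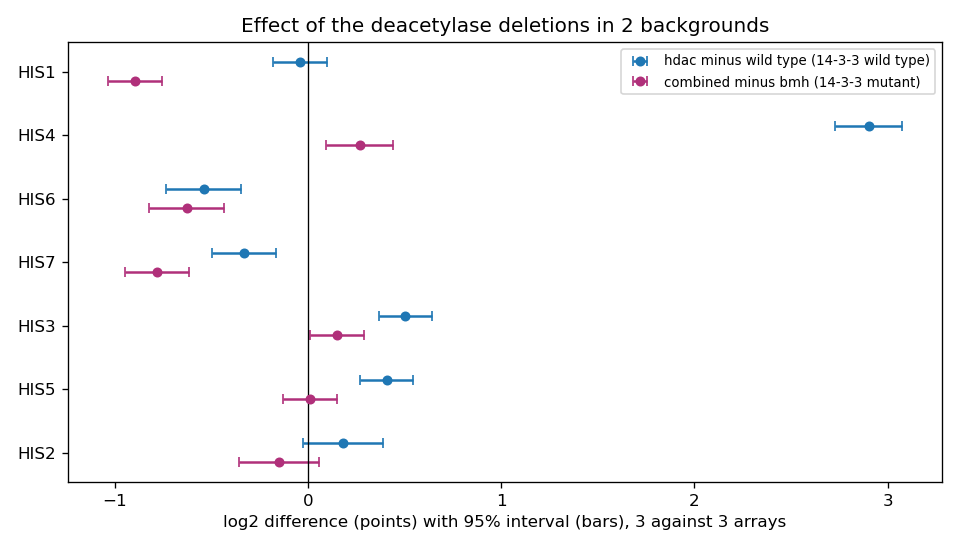
Log2 difference (x axis) of each histidine gene (y axis) for the deacetylase deletions, with 14-3-3 genes wild type (hdac minus wild type) and mutant (combined minus bmh); points are fitted differences of 3 against 3 arrays and bars 95% intervals. HIS4 is 2.90 in one and 0.27 in the other, and HIS6 is −0.54 and −0.63.

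The combined mutant against the wild type had 3 histidine genes higher and 3 lower, against 30.4% and 45.2% of all genes (75.7% in either direction), with a median of −0.13 for both the members and all genes. Without HIS3, 2 of 6 were higher and 3 lower, with a median of −0.16. HIS4 rose 3.82-fold (1.93 ± 0.079, limma adjusted p = 5.6e-10) and HIS5 1.85-fold (0.89 ± 0.063, limma adjusted p = 8.6e-08), beside HIS3. HIS6 fell by 0.66 ± 0.089 on the log2 scale (limma adjusted p = 2.4e-05) and HIS1 by 0.60 ± 0.065 (limma adjusted p = 3.6e-06). HIS7 fell by 0.20 ± 0.076 (limma adjusted p = 0.029), a call that ended without wild-type array 1 (−0.12, limma adjusted p = 0.093), combined array 1 (adjusted p = 0.063) or combined array 3 (adjusted p = 0.089). HIS2 differed by −0.13 (95% interval −0.33 to 0.08). The comparisons with the wild type share its 3 arrays.

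Set in order of level, the genes ranked the 4 strains differently. HIS3 rose in the order wild type, hdac, bmh, combined, and every neighbouring pair in that order passed the test, the last at the threshold. HIS5 had the order wild type, hdac, bmh, combined as well, over a range of 0.89 rather than 4.73, and bmh and combined did not differ beyond their spread. HIS4 had the order wild type, bmh, combined, hdac, with each step called. HIS1 had the order combined, hdac, wild type, bmh, and hdac and wild type did not differ beyond their spread. HIS7 had the order hdac, combined, wild type, bmh, with hdac and combined not separated and combined and wild type separated only as described above. HIS6 had the order combined, hdac, bmh, wild type, in which the 2 strains without deacetylases did not separate from each other, nor the 2 with them. HIS2 had the order combined, wild type, bmh, hdac, with no neighbouring pair called.

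The direct comparison of the hdac with the bmh mutant completes these orders. Here 1 histidine gene was higher in the hdac mutant and 5 were lower, against 30.5% and 41.6% of all genes (72.1% in either direction), with a median of −0.47 against −0.09 over all genes. Without HIS3, 1 of 6 was higher and 4 were lower, with a median of −0.40. HIS4 was the higher one (1.24 ± 0.079, limma adjusted p = 5.1e-08). HIS3 was lower by 4.08 on the log2 scale, HIS7 (−0.91 ± 0.076, limma adjusted p = 4.8e-07), HIS6 (−0.51 ± 0.089, limma adjusted p = 2.6e-04), HIS5 (−0.47 ± 0.063, limma adjusted p = 3.0e-05) and HIS1 (−0.34 ± 0.065, limma adjusted p = 4.8e-04) were lower too. HIS2 differed by 0.16 (95% interval −0.05 to 0.36), although no hdac array overlapped a bmh array, and passed without wild-type array 1 (limma adjusted p = 0.023).

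**Figure D4:**
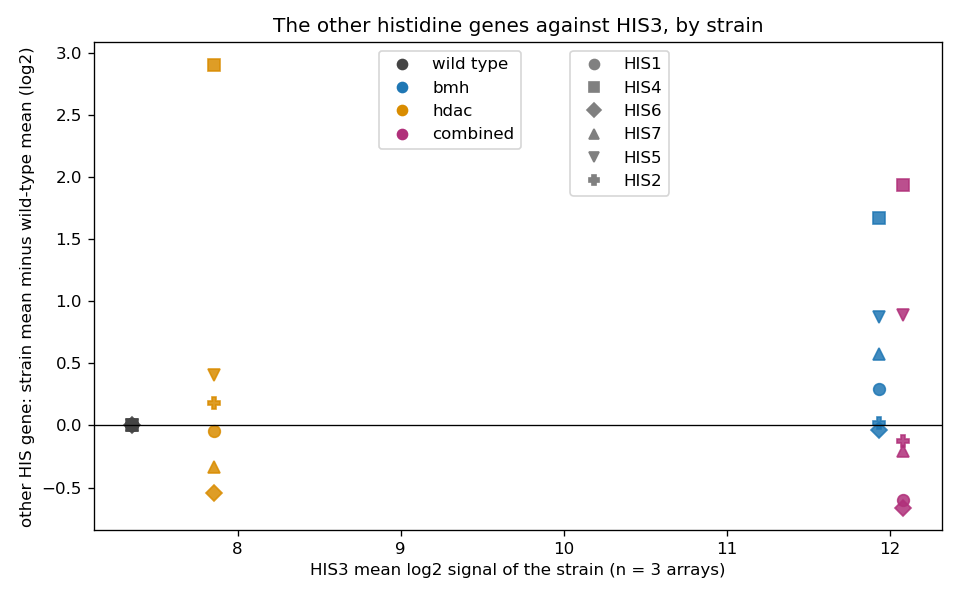
Strain mean of the other 6 histidine genes minus their wild-type mean (y axis, log2) against the strain mean of HIS3 (x axis, log2 signal), each from 3 arrays; colours are strains and symbols genes. At the high HIS3 levels of 11.93 (bmh) and 12.08 (combined) HIS1 lies at 0.30 and −0.60 and HIS7 at 0.58 and −0.20, and HIS4 is highest, at 2.90, where HIS3 is 7.86 (hdac).

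Because HIS3 formed separate levels, no correlation with it over the 12 arrays is given, and likeness was measured as a root mean square difference between log2 profiles centred on each gene's own mean. HIS3 stood 1.87 (from HIS5) to 2.31 (from HIS1) from the other histidine genes. HIS4 stood 0.91 (from HIS5) to 1.28 (from HIS6) from the rest without HIS3. Among HIS1, HIS2, HIS5, HIS6 and HIS7 the distances ran from 0.22 (HIS1 and HIS6) to 0.56 (HIS5 and HIS6). These distances follow the size of each gene's changes as well as their shape.

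Of all other genes, the one nearest to HIS3 over the 12 arrays was NCE103, which encodes carbonic anhydrase, at 0.83. Relative to the wild type NCE103 differed by 2.85 (bmh), 0.28 (hdac) and 2.97 (combined). YRO2 (0.93), the stress-induced membrane protein gene HSP12 (1.23), the secreted glycoprotein gene YGP1 (1.23) and the putative aryl-alcohol dehydrogenase gene AAD10 (1.24) came next. The median profile of the other 6 histidine genes had closer neighbours, since it moved little: MRP7, a mitochondrial ribosomal protein gene, at 0.068, the decapping factor gene EDC3 at 0.071, ARO1 of aromatic amino acid synthesis at 0.071, the phosphatase gene PHO13 at 0.074 and the protease gene RIM13 at 0.077.

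Other genes used as yeast strain markers were listed to set HIS3 beside them. Those measured were ADE2, LEU2, URA3, CAN1, LYS2 and MET17. Which of them mark these strains is not stated in the sources used here. In the bmh mutant 5 of the 6 measured rose and 1 fell relative to the wild type, beside 14.8% and 17.2% of all genes, with a median of 0.65 against −0.01 over all genes. In the combined mutant against the hdac mutant 3 rose and all 6 values were above 0, beside 17.5% of all genes that rose, with a median of 0.49 against −0.02. The uracil synthesis gene URA3 had a signal of 10.62 ± 0.079 (mean ± SD, n = 3) for the wild type, 12.07 ± 0.072 for bmh, 9.76 ± 0.22 for hdac and 11.17 ± 0.083 for the combined mutant. URA3 rose by 1.45 ± 0.097 with the 14-3-3 mutations in the first comparison (limma adjusted p = 3.6e-07) and by 1.40 ± 0.097 in the second (limma adjusted p = 4.2e-07), with an interaction of −0.05 (limma adjusted p = 0.84). The leucine synthesis gene LEU2 rose by 0.76 ± 0.11 and by 3.61 ± 0.11, with an interaction of 2.85 ± 0.15 (limma adjusted p = 1.1e-07). LEU2 means were 10.22 (wild type), 10.98 (bmh), 8.37 (hdac) and 11.98 (combined). The second rise thus started from an hdac level below the wild type (−1.85 ± 0.11, limma adjusted p = 2.3e-08). The purine gene ADE2, which is also counted among the purine genes below, rose by 1.52 ± 0.11 and 0.81 ± 0.11. HIS3 had the largest difference of the marker genes measured in both comparisons.

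Genes linked to the pathway by supply or use had differences of −0.26 to 0.28 in the bmh mutant. Of the 5 PRPP synthetase genes with the histidyl-tRNA synthetase gene HTS1 and the histidine permease gene HIP1, 1 of 7 rose in the bmh mutant (HIP1, 0.28 ± 0.092, limma adjusted p = 0.035) and 1 fell (PRS4, −0.26 ± 0.079, limma adjusted p = 0.027), beside 14.8% and 17.2% of all genes, with a median of −0.04. The call of HIP1 ended without any 1 of 5 arrays (wild-type array 1, bmh array 1 or 3, hdac array 1 or 3) and that of PRS4 without any 1 of 5 (wild-type array 2 or 3, or any bmh array). Between the combined and the hdac mutant the same genes were called, HIP1 at 0.34 and PRS4 at −0.34, and the call of HIP1 ended without combined array 3 (0.28, limma adjusted p = 0.060). In the hdac mutant against the wild type 3 of 7 fell and all 7 values were below 0, with PRS1 lowest (−0.57 ± 0.051, limma adjusted p = 8.7e-07), beside 41.6% of all genes that fell. The median was −0.10 for the list and −0.09 over all genes, so neither stands apart from the background. In that comparison 6 fell without wild-type array 1.

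Of the purine genes that share AICAR with the pathway, all measured but ADE16 rose in the bmh mutant, with a smaller median difference between the combined and hdac mutants. Of 9 measured, 8 rose in the bmh mutant and 1 fell, beside 14.8% and 17.2% of all genes, with a median of 0.57 against −0.01 over all genes. ADE17, which encodes an enzyme that uses AICAR, rose from 8.37, 8.22 and 7.95 in the wild type to 11.12, 11.12 and 11.37 (3.02 ± 0.10, limma adjusted p = 1.3e-09). Its paralog ADE16 was the one that fell (−0.28 ± 0.082, limma adjusted p = 0.022), a call that ended without bmh array 3 (adjusted p = 0.085). In the combined mutant against the hdac mutant 4 of the 9 rose and 1 fell, beside 17.5% and 18.9% of all genes, with a median of 0.20 against −0.02. The interaction was called below 0 for 6 and above 0 for 1 of the 9, beside 11.3% and 12.3% of all genes, with a median of −0.64 against −0.02, and reached −2.33 ± 0.14 for ADE17 (limma adjusted p = 3.1e-07). The 1 above 0 was ADE16 (0.36), whose call ended without any 1 of 8 arrays (all but the wild-type arrays and combined array 3).

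The other Gcn4 targets listed were genes of amino acid synthesis and SNZ1. Of 22 measured, 13 rose in the bmh mutant and 1 fell, beside 14.8% and 17.2% of all genes, with a median of 0.37 against −0.01 over all genes. The arginine gene ARG1 rose by 2.42 ± 0.085 (limma adjusted p = 1.5e-09), the vitamin B6 gene SNZ1 by 1.92 ± 0.074 and CPA1, of carbamoyl phosphate synthesis, by 1.497 ± 0.081. In the combined mutant against the hdac mutant 8 rose and 6 fell, beside 17.5% and 18.9% of all genes, with a median of 0.01 against −0.02. Without combined array 2 or 3 there were 6 rises and 3 falls, and without hdac array 2 there were 6 and 2. The interaction was called below 0 for 13 of the 22 and above 0 for 2, beside 11.3% and 12.3% of all genes, with a median of −0.33 against −0.02. ARG1 had an interaction of −2.14 ± 0.12 (limma adjusted p = 1.5e-07), whereas CPA1 rose by 1.56 ± 0.081 in the combined against the hdac mutant and had an interaction of 0.06 (limma adjusted p = 0.74). With 1 array left out, the Gcn4 targets called below 0 numbered 10 to 16 and those above 0 numbered 1 or 2.

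Among 8 regulators of these genes, GCN4 RNA differed by at most 0.17 between strains, a difference that passed between combined and bmh (limma adjusted p = 0.013). BAS1, GCN1, PHO2 and ABF1 were among those whose RNA changed relative to the wild type. GCN4 had a signal of 13.48 ± 0.079 (mean ± SD, n = 3) for the wild type, 13.41 ± 0.0099 for bmh, 13.44 ± 0.023 for hdac and 13.58 ± 0.037 for the combined mutant. It passed in none of the comparisons with the wild type (limma adjusted p from 0.11 to 0.55), but did in the combined mutant without wild-type array 1 (0.14, limma adjusted p = 0.016). Gcn4 is known to be controlled mainly by translation, which RNA levels do not show. BAS1 fell in the hdac mutant (−0.69 ± 0.13, limma adjusted p = 5.7e-04) and in the combined mutant (−0.72 ± 0.13, limma adjusted p = 3.5e-04). The wild-type arrays of BAS1 were spread, at 9.84, 10.36 and 10.56. GCN1 fell in the hdac mutant (−0.47 ± 0.059, limma adjusted p = 1.8e-05) and in the combined mutant (−0.51 ± 0.059, limma adjusted p = 7.2e-06). The strain means of GCN20 were 10.98 (wild type), 11.18 (bmh), 10.68 (hdac) and 10.57 (combined). GCN20 was lower than in the bmh mutant in the combined mutant (−0.62 ± 0.081, limma adjusted p = 2.2e-05) and in the hdac mutant (−0.50 ± 0.081, limma adjusted p = 1.3e-04). PHO2 rose in all mutants, by 0.26 ± 0.092 with bmh (limma adjusted p = 0.046), 0.54 ± 0.092 with hdac and 0.87 ± 0.092 with both sets of mutations. The first call ended without any 1 of 8 arrays (adjusted p from 0.059 to 0.17; not for wild-type array 1, bmh array 2 or hdac array 2 or 3). ABF1, a general regulatory factor gene, fell by 0.70, 1.07 and 1.33 on the log2 scale in the same strains, from wild-type values of 8.56, 7.65 and 7.85, and by 0.43 with bmh when wild-type array 1 was left out; the bmh call ended without bmh array 3 (adjusted p = 0.060). In all, 1 of 8 regulators rose and 1 fell in the bmh mutant, 1 and 4 in the hdac mutant and 2 and 5 in the combined mutant. Over all genes 32.0%, 71.4% and 75.7% were called in these comparisons, so the 5 and 7 of 8 called in the hdac and combined mutants lie near the background. Here 0 of 8 passed limma for the interaction (2 at an unadjusted p under 0.05, GCN4 at 0.21 and GCN20 at −0.32). GCN20 passed without wild-type array 1 (−0.22, limma adjusted p = 0.046) or 3 (−0.38, 0.032), and GCN4 without wild-type array 3 (0.24, 0.041). Without bmh array 3 none was called in the bmh mutant.

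**Figure D5:**
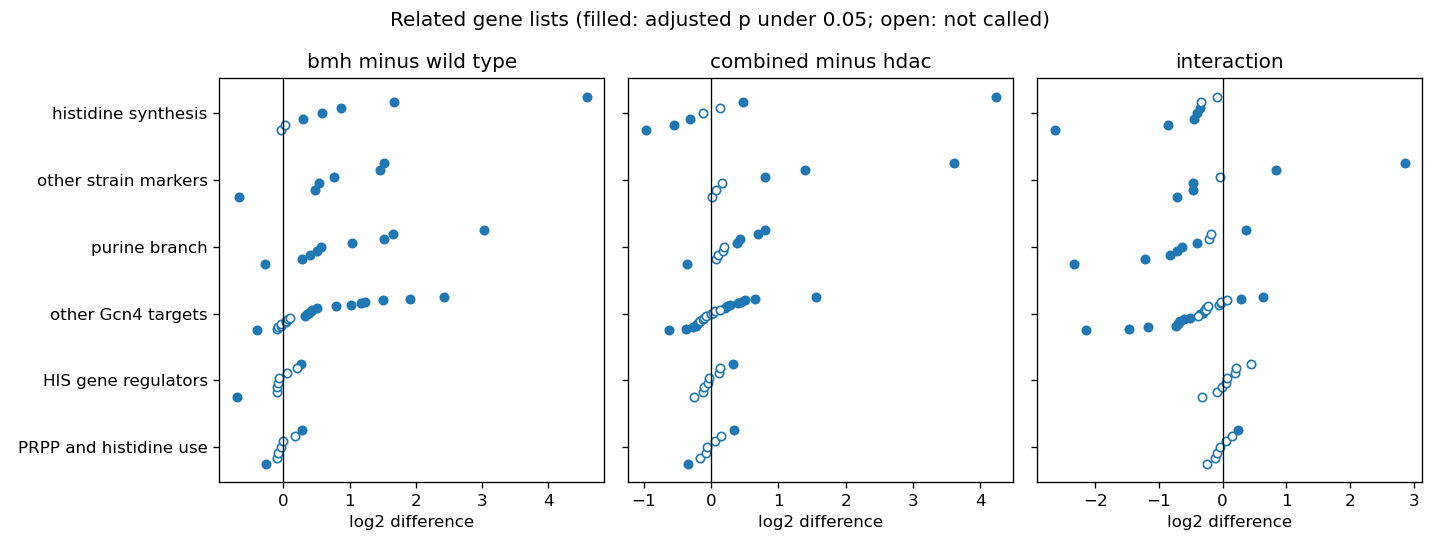
Log2 differences (x axis) of the histidine genes and of 5 related lists (y axis), 1 point per gene, for bmh minus wild type, combined minus hdac and the interaction; filled points passed at adjusted p under 0.05. Most purine genes and Gcn4 targets lie above 0 on the left and below 0 on the right, as the histidine genes do, and the regulators lie nearer 0.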

How the data were processed

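The deposited values are log2 signal intensities of Affymetrix Yeast Genome 2.0 probe sets; the affy package and RMA are named in the submitters' processing notes, whose versions the sources used here do not state. Base 2 is what RMA writes and suits the range of 3.39 to 14.87, but no source states the base. Per the labels' protocols, 250 ng of hot acid phenol RNA were amplified for each array. Of 5715 probe sets, 5497 had 1 gene symbol, 0 several and 218 none; 12 symbols were updated through Entrez identifiers, and the brightest probe set was kept per gene (49 dropped, 5448 genes). The members' probe sets end in _at.

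The tests used R 4.3.3 with limma 3.58.1 and statmod 1.5.0. One mean per strain was fitted to the 12 arrays and variances were moderated by eBayes (8 degrees of freedom from the residuals, 3.82 from the prior); p-values were adjusted by Benjamini-Hochberg over 5448 genes. The script was tested on simulated data. Named were all members, HIS3's neighbours, up to 4 called genes of each list with the largest change, and the 5 nearest profiles. GCN4 and ADE16 outside that rule, and single values beside named ones, were chosen after values were seen. Members and lists were chosen with earlier results of these data known. Deviations from strain means of same-numbered arrays correlated at 0.100 to 0.135 for bmh and combined, and at −0.18 to 0.097 otherwise, so a paired fit was made for that comparison; no label states the pairing. As alternatives, arrays were quantile normalized or weighted, dim genes dropped, the prior given a trend and made robust, only 2 groups fitted, the replicate number used as a block, every probe set tested, the threshold set to 0.01, and each array left out. Precision is limited by 3 arrays per strain. Gene positions in the reference annotation served only to find neighbouring genes; sequences were not used here.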

Additional observations from a re-analysis of the deposited data

Results flagged for a closer look

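For 5 of the 7 histidine genes the difference that went with the 14-3-3 mutations was not the same with and without the deacetylases. Their interaction was called below 0, beside 11.3% of all genes below 0 and 23.7% in either direction. The test was limma's test of the interaction (Benjamini-Hochberg over all genes). Each mutant genotype was 1 strain with unstated marker alleles, so mutation and strain cannot be told apart. The log2 interaction was −2.64 for HIS4 (adjusted p = 1.4e-08), −0.85 for HIS1 (adjusted p = 3.4e-05), −0.45 for HIS7 (adjusted p = 0.0099), −0.40 for HIS5 (adjusted p = 0.0071) and −0.35 for HIS3 (adjusted p = 0.013). For HIS4 and HIS1 the called changes had opposite signs in the 2 backgrounds. For HIS3 and HIS5 both changes were called rises. For HIS7 only that between bmh and wild type was called, though with array weights that between combined and hdac passed too. On the hdac arrays entering this term 4 of 4 alpha-cell markers were raised relative to the wild type, beside 29.8% of all genes. On the combined arrays it was 1 of 4 (SAG1, by 1.56), beside 30.4% of all genes. Of the a-cell markers 7 of 7 were lower than the wild type on the hdac arrays and 6 of 7 on the combined arrays. The shares of all genes that fell there were 41.6% and 45.2%. Combined against hdac had 7 of 7 a-cell markers higher and 4 of 4 alpha-cell markers lower, beside 17.5% and 18.9% of all genes. The part of these differences in the interaction values was not tested.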

How the results depend on the processing

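Under the alternatives, all 140 recomputed counts of histidine genes stayed within 1.5 times the reported ones. Of 931 recomputed gene differences, 888 kept their direction and side of the threshold, 24 lost a call, 11 gained one and 8 changed sign. None of the 8 was a called difference: HIS6 in bmh against wild type (0.071 with array weights; −0.11 to 0.022 with 1 array left out), HIS2 in combined against wild type (0.019 with array weights), and, with 1 array left out, HIS2 in bmh against wild type (−0.061 to 0.15), HIS5 in combined against bmh (−0.011 to 0.039) and HIS1 in hdac against wild type (−0.10 to 0.0025). The rise of HIS3 ran from 4.53 to 4.63 in the bmh and from 4.68 to 4.81 in the combined mutant, and the interaction of HIS4 from −2.70 to −2.55. The call of HIS3 in combined against bmh ended with a trend and robust prior (adjusted p = 0.054) and without 8 of the 12 arrays singly (adjusted p up to 0.17). That of HIS7 in combined against wild type also ended with quantile normalization (adjusted p = 0.079), only 2 groups in the fit (0.073) and array weights (0.10). Over all genes, calls in bmh against wild type went from 1742 to 1093 with only 2 groups and 1076 at adjusted p under 0.01. In combined against hdac they went from 1982 to 3213 with array weights and 1279 at 0.01, and for the interaction from 1289 to 2233, 738 and, without wild-type array 1, 1962. With the replicate block over all arrays, 4 rather than 5 histidine genes were called in combined against bmh, and the other comparisons kept their counts of 5, 5, 6, 5, 6 and 5. The cause of these shifts was not tested. No detection calls were used, so signal over background is known only from the deleted genes.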
